A study of Drosophila melanogaster with 312 samples.

Results

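The cytoplasmic ribosomal protein genes of Drosophila melanogaster were followed through 13 generations of artificial selection for night sleep. They were chosen by name alone, as every gene with deposited normalized counts whose symbol joins RpL, RpS or RpLP to a number, and 91 of 13212 genes met this rule. Of the 91 members, 49 carry names of the large ribosomal subunit, 38 of the small subunit and 4 of the stalk. The rule reads names only, but it covers just the genes with normalized counts, out of 17478 with raw counts. It was set with earlier results of these data known.

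The ribosome makes every protein of the cell, and its small subunit reads the messenger RNA while its large subunit joins the amino acids. Each subunit is built from ribosomal RNA and from ribosomal proteins that are needed in nearly equal numbers, so their genes are known for being expressed at high and similar levels in all tissues. In Drosophila most ribosomal proteins have a single gene, and losing one copy of many of these genes gives the Minute phenotype of slow growth and thin bristles. Some have a duplicate gene, called a paralogue here, and duplicates expressed mainly in the testis or the ovary are well known.

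The flies came from the Sleep Advanced Intercross Population, an outbred population made by crossing 10 inbred lines of the Drosophila Genetic Reference Panel. From it 6 populations were founded: short-sleeper populations 1 and 2 and long-sleeper populations 1 and 2, in which the most extreme sleepers of each generation became the parents, and control populations 1 and 2, whose parents were drawn at random. All flies were virgins reared on the same food in a light and dark cycle, and all had spent 4 days in the activity monitors before whole bodies were frozen. Each library is polyA RNA of a pool of 10 flies of 1 sex. Males and females of each population were sampled at generation 0 and at each of generations 2 to 13, 13 generations in all, with 2 pools each, which gives 12 libraries of each sex in every generation. The populations were kept apart, so the replication of a selection scheme is 2 populations and not the number of libraries.

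Library totals ranged between 31539064 and 109389826 counts with a median of 41317004. The members took a median of 5.55% of the counts in males (lowest 4.01%, highest 8.26%) and 8.81% in females (lowest 5.52%, highest 15.4%). Of 14 testis markers, 12 were higher in males, and of 13 ovary markers, 11 were lower in males, as the sex labels say. Against their labels, 4 libraries held RNA of the other sex. They are short-sleeper population 2 males of generation 0 (pool 2) and of generation 2 (pool 1), long-sleeper population 1 males of generation 8 (pool 2), and control population 2 females of generation 2 (pool 1). Another library, control population 1 females of generation 0 (pool 1), had the 15.4% share. Values of single genes that these libraries move by over 1.5 times are also given without them. All levels below are normalized read counts, the raw count divided by the authors' size factor for the library, and levels of different genes are compared only per kilobase of exonic length. Exonic lengths and positions are from the BDGP6.54 annotation.

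The members differed first in how widely they were expressed. In males the median member stood at 31339 normalized counts per kilobase, and the 66 members with no paralogue lay between 9133 and 108328 per kilobase. In females the median member stood at 47318 per kilobase, and the members with no paralogue lay between 15449 and 223132. RpL38, a large subunit protein, was the lowest and RpL41, one of the smallest proteins known, was the highest of these 66 genes in both sexes. The other 25 members form 12 families of paralogues, and their levels per kilobase reached down to 211 in males and 0 in females.

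The sexes were compared with the fit across all genes, with population and generation as terms and all libraries of both sexes. Males and females differed at an adjusted p under 0.001 (edgeR's quasi-likelihood F-test, Benjamini-Hochberg over all genes tested) in 90 of 91 members, against 98.3% of the 13896 genes tested, so the call alone sets the members apart from nothing. The direction was uneven. In males 82 members were lower, against 37.0% of all genes, and 8 were higher, against 61.3% of all genes. The median member was at -0.58 on the log2 scale (male minus female) and the median of all genes was at 1.27. A gene entered with a normalized count above 50 in a male or 100 in a female library. This minimum was passed by 13825 genes in males and by 10107 in females. The shares and the median of all genes therefore include many genes that entered through their male values alone, which leans them toward males. Whole bodies were measured, so fewer cells of a type and less RNA per cell cannot be told apart.

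The size of this gap depends on the scaling of the libraries. Scaling with TMM factors moves the median of all genes by -0.41, to 0.86, and the members' median to -0.998. Relative to the median of all genes the members' median stays about as far below. A gap of at least 1 on the log2 scale was called lower in males for 3 members with the authors' factors, against 23.2% of all genes, and for 45 with TMM factors. Higher by at least 1 in males were 7 members under every scaling, against 52.7% of all genes with the authors' factors. The shares of all genes at this size with the other scalings are not given here, so the rise to 45 has no background beside it.

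All 66 members with no paralogue were lower in males. Their log2 differences lay between -1.01 and -0.19 with a median of -0.61, which is 0.656 times the female level. The large subunit (39 genes, median -0.61) and the small subunit (25 genes, median -0.61) had the same median to this precision. Of these 66 genes, 50 were lower in males in all 78 population means by generation and 63 in at least 70 of them, although over single libraries the sexes overlapped for each of the 66.

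At the far end of this range, RpL41 had 17608, 34665 and 59224 normalized counts in males (lowest, median, highest library), against 35357, 71402 and 156608 in females. Its log2 difference was -1.01 (SE 0.017, adjusted p = 2.1e-164). RpS3A, a small subunit protein whose gene is the one member on chromosome 4, had 19839, 42036 and 77546 normalized counts in males, against 34983, 84210 and 192047 in females. The difference was -0.99 (SE 0.014, adjusted p = 5.2e-188). At the near end were RpS2, a small subunit protein, at -0.19 (SE 0.035), the stalk protein RpLP1 at -0.25 (SE 0.020) and RpS20, of the small subunit, at -0.34 (SE 0.024). These 3 genes are named after their values were seen.

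The gap was similar over the chromosome arms. The median of the members with no paralogue was -0.61 on 2L (16 genes), -0.61 on 2R (17 genes), -0.62 on 3L (12 genes), -0.49 on 3R (15 genes) and -0.63 on X (5 genes). The medians of all genes tested there were 1.68, 1.30, 1.31, 1.38 and 0.19 in the same order of arms.

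**Figure D1:**
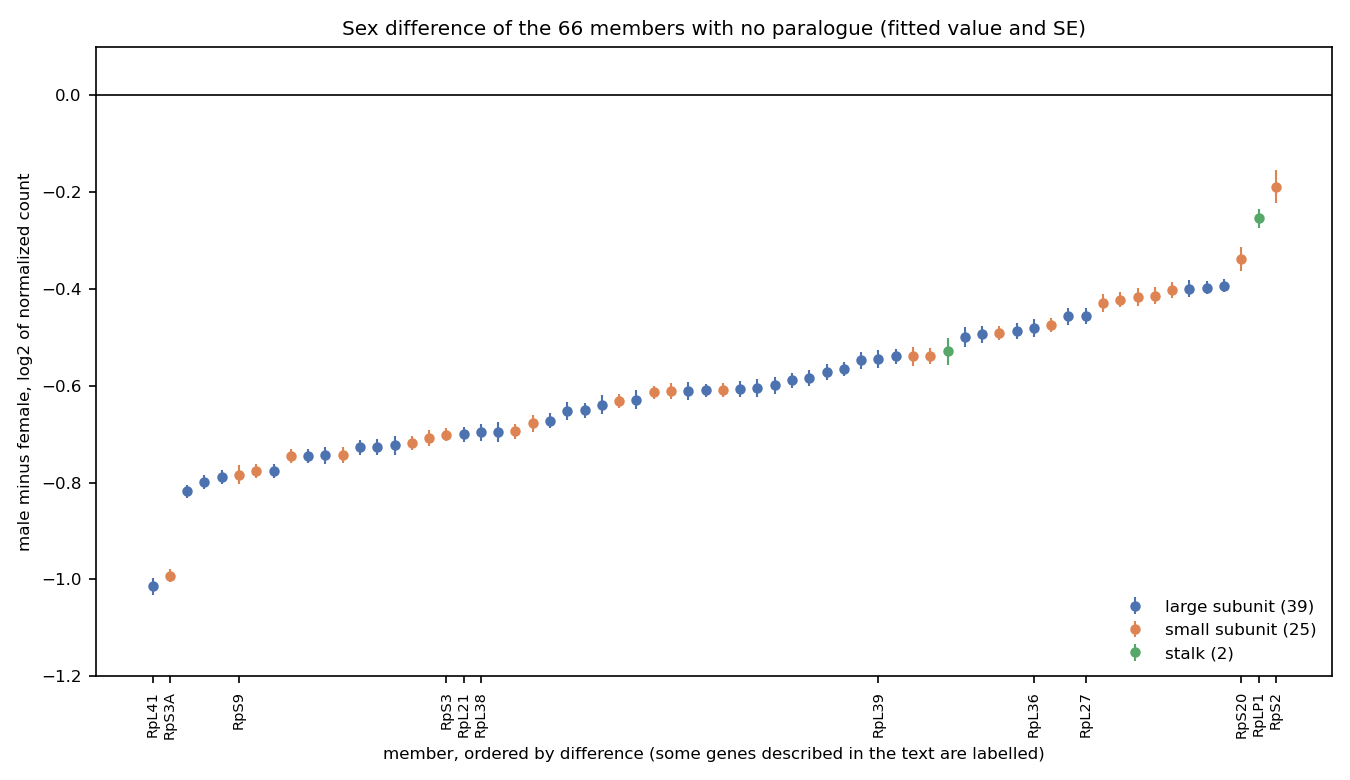
Fitted male minus female difference (log2 of normalized count, y axis) of the 66 members with no paralogue, ordered from the lowest to the highest (x axis, some of them labelled), with bars for the standard error and colours for the subunit. All 66 points lie below 0, between -1.01 for RpL41 and -0.19 for RpS2.

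The paralogues departed from this pattern in both directions. Of the 25 genes in families, 7 had every male library above every female library, and all 7 were among the genes called higher in males (61.3% of all genes were). The share of all genes whose sexes do not overlap was not taken, so the count of 7 is a description. They were RpL10Aa, RpL22-like, RpL37b, RpS10a, RpS19b, RpS28a and RpS28-like, each with a lower median per kilobase than its partner in both sexes. The partner RpL22 was itself low, with medians of 3802 per kilobase in males and 5124 in females. These 7 did not pass the count minimum for the tests within females. They entered the comparison of the sexes through their male values alone, so their sex differences are descriptions. With TMM factors or total counts the same number of family members did not overlap, again 7, all higher in males.

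RpL10Aa shares its stem with RpL10Ab, a large subunit protein of the ribosome's L1 stalk. It lies on 3R at 15037366 to 15038149, plus strand. It had 416, 2839 and 4228 normalized counts in males, and in females 84 libraries had none, the median was 0 and the highest was 90.5. The lowest male and the highest female value belong to 2 of the 4 libraries with RNA of the other sex, and without those 4 the male range was 1572 to 4228 and the highest female value 4.75. The fitted log2 difference was 11.05 (SE 0.095), the largest of all members, and 11.72 without the 4 libraries. Per kilobase it supplied a median of 10.8% of the 2 genes' RNA in males and 0% in females.

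RpL22-like, which is known from the male germline, had 338, 1785 and 2328 normalized counts in males, against 0, 3.00 and 56.5 in females. Without the 4 libraries its lowest male value was 1196 and its highest female value 30.0. The log2 difference was 8.83 (SE 0.069, adjusted p = 7.1e-263). Its share of the RpL22 pair per kilobase had a median of 27.4% in males (8.24 to 59.7% over libraries) and 0.048% in females, so it took the largest part of a family among the 7.

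RpS19b, partner of the small subunit gene RpS19a, had 136, 1060 and 1500 normalized counts in males, against 1.98, 16.0 and 51.4 in females. The lowest male value was 495 and the highest female value 35.5 without the 4 libraries. The log2 difference was 5.90 (SE 0.046, adjusted p = 4.6e-261), and its share was 7.84% in males and 0.079% in females. It was the one gene of these 7 with counts in every female library.

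RpS10a, partner of RpS10b in the small subunit, had 58.9, 502 and 749.8 normalized counts in males, against 0, 2.78 and 17.5 in females (log2 difference 7.29, SE 0.056), and a male share of 5.21%. Its lowest male value was 243 and its highest female value 11.0 without the 4 libraries. RpL37b, partner of RpL37a in the large subunit, had 63.0, 357 and 566 normalized counts in males, against 0, 1.08 and 16.4 in females (log2 difference 7.64, SE 0.067), and a male share of 2.81%. Its lowest male value was 144 without them. Both fall well under their partners in either sex.

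The RpS28 family, of the small subunit, has 3 genes. RpS28-like had 34.0, 429 and 675 normalized counts in males, against 0, 0 and 13.4 in females (log2 difference 8.90, SE 0.078), and 4.00% of the family in males. For RpS28-like the lowest male value was 148 and the highest female value 4.81 without the 4 libraries. RpS28a had 4.98, 64.0 and 143 normalized counts in males, against 0, 0 and 1.90 in females, where 143 libraries had none (log2 difference 8.34, SE 0.10), and 0.699% of the family in males. Its lowest male value was 22.7 without them. RpS28b held the rest, with a median of 95.2% in males and 100% in females.

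RpS5b was the member most shifted to females. It encodes a small subunit protein and is known from the ovary. The gene lies on 3R at 14900432 to 14901563, minus strand. It had 410, 866 and 12943 normalized counts in males, against 9596, 19484 and 43113 in females. The male values of 12943, 8555 and 4362 belong to the 3 male libraries that held RNA of the other sex. Without the 4 libraries the highest male value was 1244 and the sexes did not overlap. The log2 difference was -4.40 (SE 0.065, adjusted p = 5.2e-181) with all libraries.

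RpS5a, its partner on X (17143588 to 17148264, minus strand), went the other way. It had 20629, 35530 and 48000 normalized counts in males, against 15561, 26314 and 42982 in females. The log2 difference was 0.42 (SE 0.020, adjusted p = 6.9e-61) with the authors' factors, and males were higher in 75 of 78 population means by generation. With TMM factors the difference was 0.005 and was not called, so the direction of RpS5a rests on the scaling, while relative to the other members it stood high under each scaling.

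RpLP0-like was, after RpS5b, the member with the largest shift to females. RpLP0 forms the base of the stalk, and the yeast homologue of RpLP0-like, Mrt4, holds that place while the large subunit is assembled. RpLP0-like had 645, 796 and 2317 normalized counts in males, against 2263, 2864 and 4144 in females. Without the 4 libraries its highest male value was 1191 and the sexes did not overlap. The log2 difference was -1.83 (SE 0.020, adjusted p = 2.1e-220), and its share of the RpLP0 pair was 2.45% in males and 8.44% in females. It overlaps Jra on the other strand, and without a stated strand setting reads of the 2 genes cannot be told apart. The same limit holds for other family genes, among them RpS10a (tau), RpL24-like (Dtd) and RpL10Ab (CG32095). RpS28-like overlaps CG3769 on the same strand.

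RpLP0 was the 1 member not called between the sexes. It had 28696, 43034 and 53892 normalized counts in males, against 16676, 43297 and 76647 in females. The log2 difference was 0.02 (SE 0.030, adjusted p = 0.469), -0.39 with TMM factors, -0.05 with total counts and -0.04 without long-sleeper population 1. The spread in females was wide, and the ranges overlapped fully.

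The remaining partners of the 7 male-biased paralogues were lower in males, as the members with no paralogue were: RpS19a at -0.76 (SE 0.017), RpS10b at -0.64 (SE 0.016), RpL37a at -0.53 (SE 0.015), RpL22 at -0.49 (SE 0.042) and RpS28b at -0.48 (SE 0.015) on the log2 scale. RpL10Ab was at -0.12 (SE 0.025) and was higher in males in 26 of 78 population means. Summed over both genes per kilobase, the RpL10A family was 0.11 higher in males (log2 of the medians' ratio) with the authors' factors and -0.31 with TMM factors. The RpL22 family was at 0.02 with the authors' factors, -0.05 with total counts and -0.38 with TMM factors, and both signs rest on the scaling.

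In 4 further families both genes were called lower in males. RpL34a was at -0.86 (SE 0.015) and RpL34b at -0.68 (SE 0.020), and RpL34a held 29.6% of the pair in males and 32.2% in females. RpL24 was at -0.47 (SE 0.019) and RpL24-like, whose yeast homologue Rlp24 is an assembly factor in place of the mature protein, at -0.55 (SE 0.025), with a share of RpL24-like of 30.3% in males and 32.3% in females. RpS15Aa was at -0.67 (SE 0.013) and RpS15Ab at -0.40 (SE 0.016), and RpS15Ab held 6.04% of the pair in males and 5.04% in females.

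RpS14a was at -0.49 (SE 0.018) and RpS14b at -0.38 (SE 0.016), with 50.6% of the pair as RpS14a in males and 52.3% in females. The 2 genes lie side by side on X, RpS14a at 7933742 to 7934677 and RpS14b at 7934898 to 7935792. They are near-identical copies and only uniquely mapped reads were counted, so reads that fit both were left out. Their shares per kilobase of full exonic length are therefore uncertain.

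**Figure D2:**
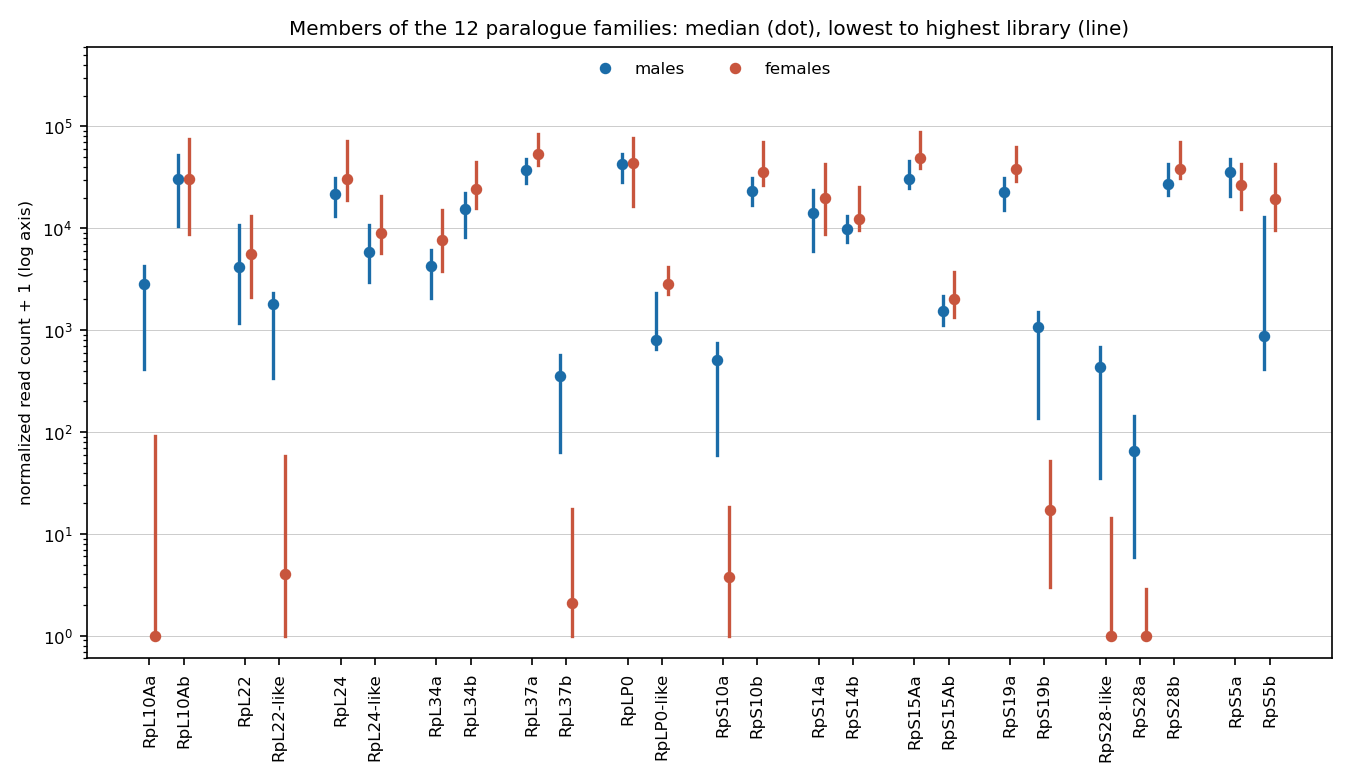
Normalized read count plus 1 (log y axis) of the 25 members in the 12 paralogue families (x axis), males left of females for each gene, with the median as a dot and a line between the lowest and the highest library. RpL10Aa, RpL22-like, RpL37b, RpS10a, RpS19b, RpS28a and RpS28-like have male lines wholly above the female ones, and RpS5b and RpLP0-like have the female median far above the male one.

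Genes that act with the ribosome shared the lower level in males. Of all genes, 37.0% were called lower and 61.3% higher in males. Of 13 genes for ribosome biogenesis, 13 were lower in males, with a median of -2.72 on the log2 scale. They include Ns1, a nucleolar GTPase (-1.95), RpI1, the largest subunit of RNA polymerase I (-2.72), and Tif-IA, which recruits that polymerase (-1.33). Of 20 translation factors and ribosome-associated proteins, 18 were lower with a median of -0.87, among them the eIF2 subunits eIF-2gamma (-1.51), eIF-2alpha (-1.05) and eIF-2beta (-1.24). Higher in males were Ef1alpha100E, an elongation factor (2.36), and eIF-1A, which helps find the start codon (0.05). Of 12 regulators of growth and of ribosomal genes, 10 were lower, among them the transcription factors Dref (-2.54) and M1BP (-1.15) and the growth kinase Tor (-1.07), and 2 were higher, the stress factor Xrp1 (1.77) and Thor, which binds the cap-binding factor (1.15). The other tissues' markers also moved with sex: all 7 accessory gland, all 5 gut and all 4 neuron markers were higher in males. The part of tissue composition in the members' gap was not tested.

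The gap was followed through the generations with 12 interaction terms tested together. It changed with generation in 83 of 91 members, against 29.8% of all genes (edgeR's quasi-likelihood F-test, adjusted p under 0.001). The median gap of the 66 members with no paralogue was -0.79 at generation 0, -0.65 at generation 2, -0.78 at generation 3, -0.65 at generation 4, -0.55 at generation 5, -0.53 at generation 6 and -0.73 at generation 7. It was -0.45 at generation 8, -0.64 at generation 9, -0.39 at generation 10, -0.64 at generation 11, -0.46 at generation 12 and -0.66 at generation 13. The median stayed below 0 in every generation, nearest at generations 10 and 8 and farthest at generations 0 and 3. With the 2 pools summed 51 members were called, against 12.6% of all genes. Without the pools numbered 1 there were 17, against 3.26%, and without those numbered 2 there were 7 (7.69% of the members), against 11.7% of all genes, so the members' excess over all genes was not seen with the pools numbered 1 alone.

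The 8 members not called were RpL10Ab, RpL22 and 6 of the 7 male-biased paralogues. RpLP0 moved across 0 with the authors' factors: its fitted gap was 0.35 at generation 10, 0.27 at generation 12 and -0.37 at generation 3, a range of 0.72 (adjusted p = 2.1e-05). With TMM factors its mean difference was below 0 in 12 of 13 generations, between -0.79 and 0.007, so the side rests on the scaling. RpS2 had a range of 0.88 (adjusted p = 1.5e-05), the widest among the members with no paralogue.

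**Figure D3:**
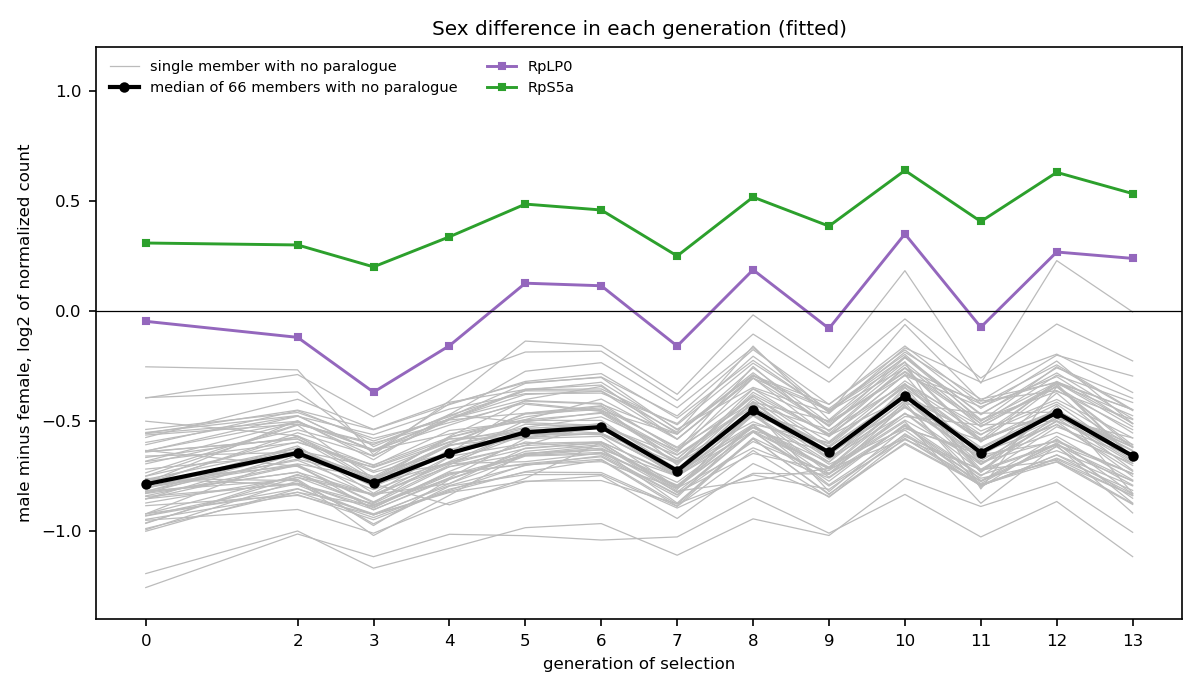
Fitted male minus female difference (log2 of normalized count, y axis) in each generation of selection (x axis) for the 66 members with no paralogue (grey lines), their median (black), RpS5a (green) and RpLP0 (purple). The grey lines move together, with the median between -0.79 at generation 0 and -0.39 at generation 10, and RpLP0 crosses 0 several times with the authors' factors shown here, while with TMM factors it is below 0 in 12 of 13 generations.

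Within each sex the members moved from generation to generation. In males 90 of 91 members differed among generations at an adjusted p under 0.001, against 86.7% of 13825 genes tested (edgeR's quasi-likelihood F-test on 12 generation terms), and 71 also had a range of at least 0.5 on the log2 scale, against 64.2%. In females 84 of 84 members differed, against 93.1% of 10107 genes tested, and 58 had such a range, against 61.3%. By these counts the members were near the background. The member not called was RpL22-like in males, with a range of 0.29 (adjusted p = 0.0428).

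What the members had in common was the timing. A joint score was taken for each library as the median over members of the log2 normalized count (plus 1) less the gene's mean over libraries of that sex, and it is given as a description. In males its mean was highest at generation 8 (0.20) and generation 5 (0.17), and lowest at generation 11 (-0.29) and generation 13 (-0.21), an amplitude of 0.49. In females it was highest at generation 0 (0.19) and generation 3 (0.15) and lowest at generation 11 (-0.25), an amplitude of 0.44. With TMM factors the female low was at generation 13. The high was at generation 5 without the pools numbered 1, in either sex, and in males also without short-sleeper population 1. Without the 1 control population 1 library the female high was at generation 3, with an amplitude of 0.39.

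The populations shared the side of the mean at some generations and not at others. All 6 male populations were above their mean at generations 5, 6, 8 and 10 and below it at generations 9, 11 and 13. All 6 female populations were above at generation 3 and below at generations 10, 11 and 13. They were apart at generation 0 in females, with long-sleeper population 1 at -0.23 and control population 1 at 0.50, and at generation 9, with control population 1 at 0.09 and control population 2 at -0.26. Of the variance of the score over libraries, 66.4% lay between generations in males and 51.0% in females, 21.4% and 32.8% between populations within a generation, and 12.2% and 16.2% between pools.

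The most extreme libraries had a second pool near them in males and none near them in females. The lowest male score was -0.50 in short-sleeper population 2 at generation 11, where the other pool had -0.37. The highest was 0.50 in short-sleeper population 1 at generation 8, where the other pool had 0.39. In females the highest was 0.90 in the control population 1 library of generation 0 named above, whose other pool had 0.11, and that value rests on 1 library. The lowest was -0.53 in long-sleeper population 1 at generation 11, whose other pool had -0.02.

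**Figure D4:**
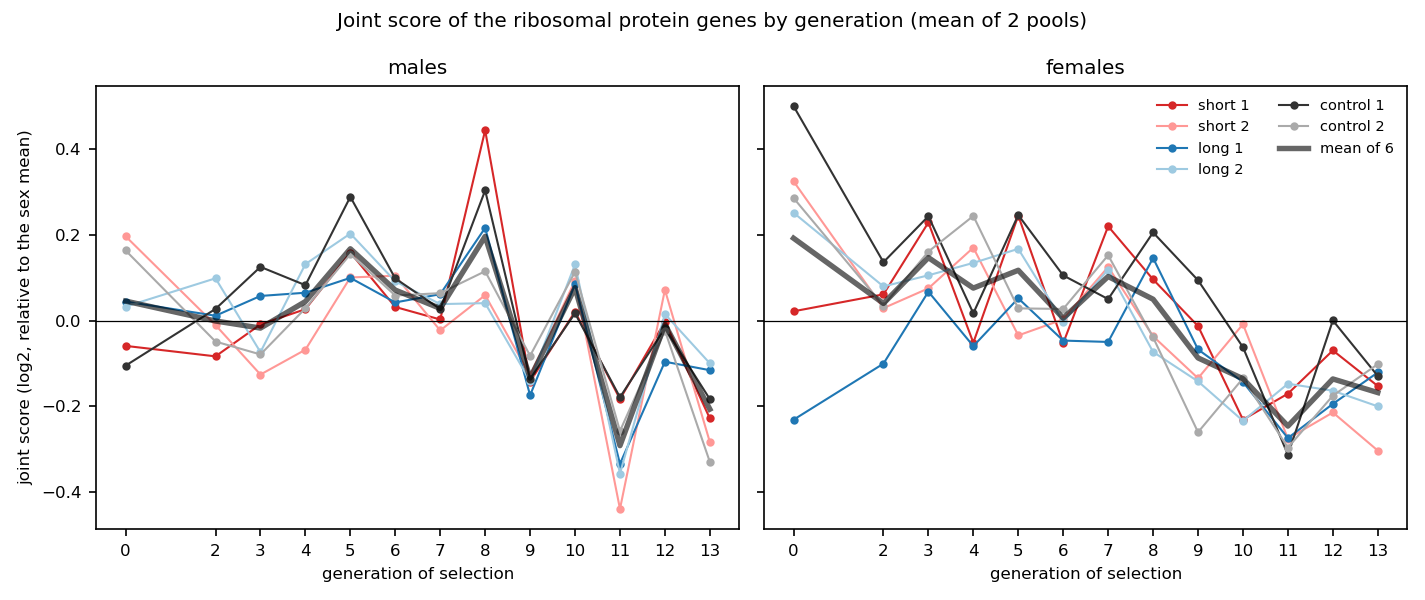
Joint score of the members (log2, relative to the mean of the sex, y axis) by generation of selection (x axis) in males (left) and females (right), a line for each of the 6 populations (mean of 2 pools) and a thick line for their mean. All male lines are below 0 at generations 9, 11 and 13, and all female lines at generations 10, 11 and 13.

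Correlation with the score over the libraries of a sex had a median of 0.69 over members in males, and 61 of 91 were above 0.5, against 4.97% of all genes. In females the median was 0.77, and 68 of 84 were above 0.5, against 12.7% of all genes. The score is made of the members and the libraries share generations, so these are descriptions. Over the 13 generations the male and the female score had a correlation of 0.67. A member's own male and female generation means had a median correlation of 0.79 (84 members), beside 0.75 over all genes.

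Levels by generation are given below without the 4 libraries that held RNA of the other sex. The genes closest to the score were RpL27, RpL7 and RpL19, large subunit proteins, in males and RpL27, RpL19 and RpS10b in females. RpL27 had 33903, 38136 and 49929 normalized counts (lowest, median, highest library) in males of generation 8, and 20084, 24509 and 26442 in males of generation 11. The 2 generations did not overlap. RpL7 had a median of 44796 at generation 8 and 30388 at generation 11 in males, and RpL19 had 42438 and 35143. In females RpL27 had medians of 54435 at generation 0 and 34718 at generation 11, RpL19 of 80690 and 58573, and RpS10b of 41926 and 30542.

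The most common generation for a member's lowest mean was 11, in 42 of 91 members in males and 35 of 84 in females, followed by generation 13 with 25 and 23. The highest mean fell at generation 8 in 32 members and at generation 12 in 18 in males, and at generation 0 in 35 in females. The shares of all genes at these extremes were not taken. Over all genes the median absolute deviation was also largest at generation 11, at 0.22 in males and 0.21 in females.

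The members with the widest swings in females were low at generations 9, 11 and 12. RpS9, a small subunit protein that guards decoding accuracy, had 28449, 31282 and 44809 normalized counts in males of generation 0, and 8363, 10166 and 11276 in males of generation 11. In females it had 47521, 68282 and 120415 at generation 0, and 13070, 16292 and 23229 at generation 11. The range of its generation means was 1.79 in males and 2.00 in females on the log2 scale, which is 3.45-fold and 3.99-fold. In all 6 populations of each sex it was above its mean at generations 0 and 3 and below it at generations 9 and 11.

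RpS3A moved with it, with male medians of 60082 at generation 0, 22557 at generation 9, 22045 at generation 11 and 20891 at generation 12. Its female medians were 139262, 46188, 40703 and 36180 at the same generations. RpL39, a small protein at the tunnel by which new chains leave, had male medians of 21085 at generation 5 and 7204 at generation 11, and female medians of 31103 and 10885. The ranges were 1.54 in males and 1.61 in females.

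RpL10Ab had male medians of 36706 at generation 5 and 13985 at generation 11, and female medians of 39740 and 14845. RpL38 had male medians of 11632 at generation 7, 4572 at generation 9 and 4710 at generation 12, and female medians of 21107, 7546 and 6712. Unlike RpS9, RpL38 was back at a high level at generation 13, with 10784 in males and 16859 in females.

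A smaller set ran against these genes. RpL36, of the large subunit, had 24189, 26730 and 37211 normalized counts in males of generation 0 and 47762, 53720 and 64546 in males of generation 11, which did not overlap. In females it had 32108, 47211 and 97223 at generation 0 and 40978, 78004 and 102236 at generation 11, which did. It was above its mean in 6 of 6 populations of both sexes at generations 9, 11 and 12, and below in 6 of 6 at generation 13. Its correlation with the joint score was -0.19 in males and -0.05 in females, the lowest of all members in males.

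Of the 84 members tested in both sexes, 37 were below their mean at generations 9, 11 and 12 in both sexes and 12 were above. Among the 12 were RpL6, RpL13A, RpL21, RpL23, RpL32, RpL36, RpLP0-like, RpS7, RpS14b and RpS15Aa. Of all genes, 33.6% in males and 30.4% in females were below at these 3 generations and 33.7% and 37.1% above, beside 43 and 46 members below and 13 and 13 above. RpL21 had male medians of 31356 at generation 0 and 49731 at generation 11, and female medians of 60298 and 78721.

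The paralogues RpS14a and RpS14b fell into opposite sets. RpS14a had male medians of 19472 at generation 5 and 6997 at generation 11, and female medians of 26918 and 10023. RpS14b had male medians of 9990 and 11466, and female medians of 12555 and 15182, at the same generations. Only uniquely mapped reads were counted, so reads that fit both near-identical copies were left out. The part of this in the contrast was not tested.

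RpL22 had a course of its own. Its male medians were 3444 at generation 0, 6900 at generation 4, 7890 at generation 5, 2460 at generation 11 and 1981 at generation 13. Its female medians were 4792, 9098, 8246, 4746 and 3347 at those generations. The range of 1.86 in males was the widest of all members there, and in females it was 1.44.

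Of the 7 male-biased paralogues, 6 were below their male mean at generations 9, 10, 11 and 12, and 5 were lowest at generation 11. The share of all genes with such a course was not taken. RpS28a had male medians of 112 at generation 0 and 30.6 at generation 11, a fitted range of 1.75, and RpS28-like and RpL37b had fitted ranges of 1.41 and 1.19 in males, with means lowest at generation 11 (196 and 193 normalized counts). RpS19b, RpS10a and RpL10Aa had fitted ranges of 1.03, 0.86 and 0.82. RpL22-like was the one outside this pattern and stayed within 0.29, with means between 1567 and 1910. RpS5b in males had a fitted range of 1.66, and of 0.84 without the libraries with RNA of the other sex.

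**Figure D5:**
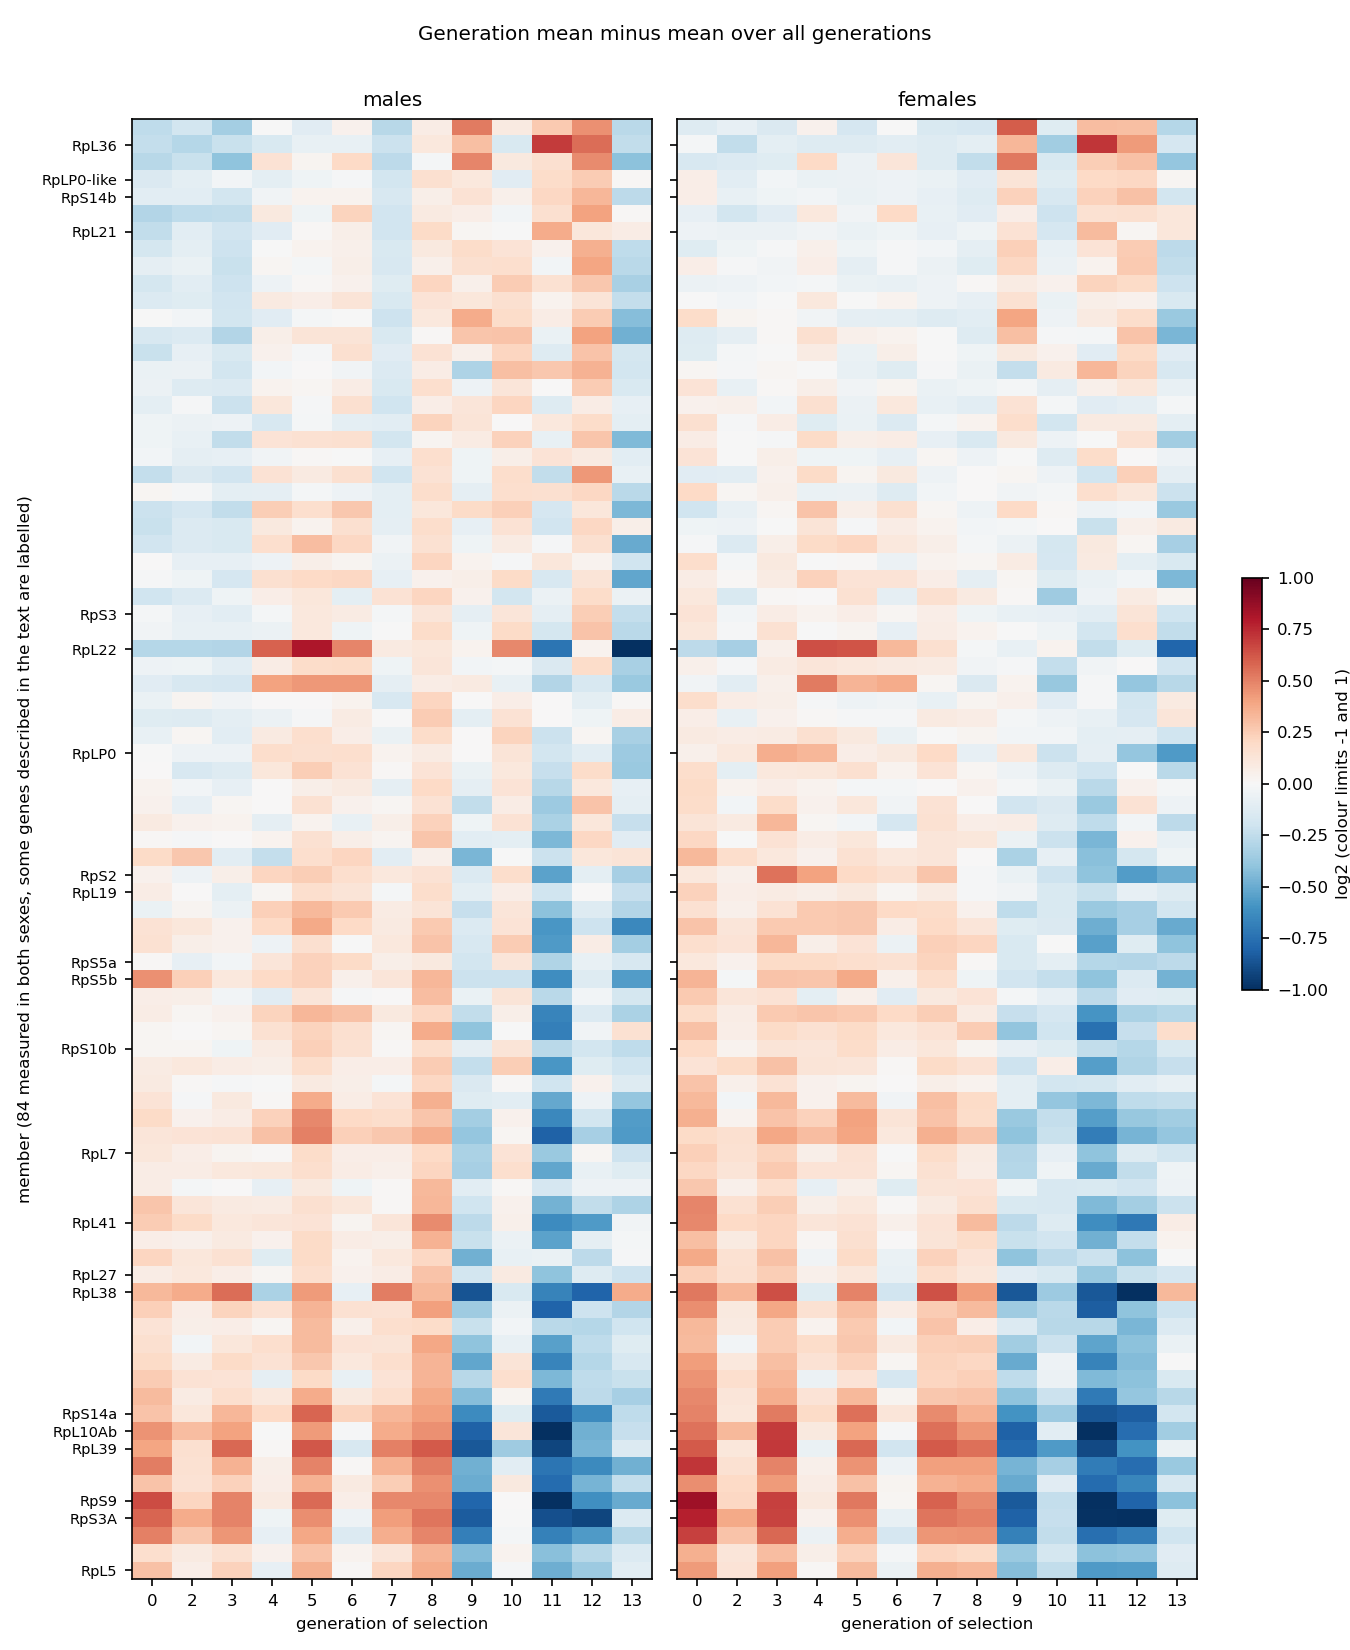
Generation mean minus the mean over all generations (log2 of normalized count plus 1, colour) for the 84 members measured in both sexes (rows, some of them labelled) at each generation of selection (columns), males left and females right, with rows ordered by correlation with RpL5. Lower rows such as RpS9, RpS3A and RpL39 are blue at generations 9, 11 and 12 in both panels, and upper rows such as RpL36 are red there.

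Other genes moved over the same generations. The median deviation of 4 neuron markers was high at generations 9, 11 and 12, with an amplitude of 1.33 in males and 1.13 in females. That of 5 gut markers was lowest at generation 12 in males and 13 in females, with amplitudes of 1.42 and 1.26, and that of 7 accessory gland markers was lowest at generation 11 in males, with 1.06. The regulators of growth and ribosomal genes were highest at generation 11 in both sexes, with amplitudes of 0.65 and 0.61. The 13 ovary markers in females were highest at generation 11 (0.21), where the members' score was lowest, and stood at 0.19 at generations 9 and 10. The 14 testis markers in males lay between -0.18 and -0.11 at generations 8 to 11. The translation factors moved less, by 0.24 in males and 0.12 in females, and ribosome biogenesis by 0.39 and 0.15. The part of these markers in the members' swing was not tested, and generation and the time of handling or sequencing cannot be told apart.

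Selection was read from the slopes over generations that the 4 selected populations had beyond the slope shared with the controls, with all 4 added slopes tested together. Of 91 members, 1 was called in males, RpS5b, against 6.18% of all genes. Of 84 members, 1 was called in females, RpS3, against 12.5% of all genes (edgeR's quasi-likelihood F-test, adjusted p under 0.001). At an unadjusted p under 0.05 there were 1 in males, against 27.2% of all genes, and 44 in females, against 61.8%. In females populations with the same number deviated together, and with the replicate block 0 members were called, beside 619 of all genes where 1261 were called without it. Simulated counts of a fixed spread gave some genes a log2 change by generation 13 in the short-sleeper populations alone. The slope test called 0% of changes of 0.5 in males and 1.72% in females. It called 38.1% and 56.9% of changes of 1. The simulated spread was the same for every gene and was not fitted to the members, so these rates are not the members' own. Few calls are not read as a lack of response.

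The call of RpS5b in males (adjusted p = 0.00065) rests on the libraries with RNA of the other sex. Males of short-sleeper population 2 had 1032 and 8555 normalized counts at generation 0 and 482 and 429 at generation 13. Males of control population 2 had 1090 and 961 at generation 0 and 486 and 432 at generation 13. Without the 4 libraries the adjusted p was 0.819, and over all alternatives it lay between 4.8e-09 and 0.948.

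The call of RpS3 in females (adjusted p = 0.000463) concerns a small subunit protein that also acts in DNA repair. Females of long-sleeper population 1 had 54496 and 58247 normalized counts at generation 0 and 62593 and 61821 at generation 13. Females of control population 1 had 115003 and 73401 at generation 0, and 59458 and 57793 at generation 13. The control pools of generation 0 include the library with the 15.4% share. With the replicate block the adjusted p was 0.0199, and without that library it was 0.000625. It was 0.124 without generation 0 and 0.181 without long-sleeper population 1.

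No member was called between the schemes. The mean short minus the mean long slope was called for 0 of 91 members in males, against 1.87% of all genes, and for 0 of 84 in females, against 0.940% (edgeR's quasi-likelihood F-test). An unadjusted p under 0.05 was reached by 2 members in males, against 19.0% of all genes, and by 4 in females, against 11.2%, and DESeq2 also called 0 in each sex. RpS5b was at -0.107 log2 per generation (SE 0.035, adjusted p = 0.0389) in males, and at -0.008 without the 4 libraries. RpS3 was at -0.012 (SE 0.0066, adjusted p = 0.504) in females.

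The members' slopes nonetheless leaned 1 way in population 1 of each scheme in females. The median added slope was 0.016 in short-sleeper population 1 and 0.034 in long-sleeper population 1, with 83 of 84 members above 0 in both, against 46.8% and 55.1% of all genes. It was -5.1e-05 in short-sleeper population 2 and 0.0047 in long-sleeper population 2, with 41 and 63 above 0, against 60.8% and 61.4% of all genes. In males the added slope was above 0 in 81 of 91 members in short-sleeper population 1, against 45.9% of all genes, with a median of 0.011. Male long-sleeper population 1 did not lean as far, with 56 members above 0 (median 0.0014), against 45.5% of all genes. Short-sleeper population 2 had 34 (against 52.6%) and long-sleeper population 2 had 61 (against 43.4%) in males. These slopes share the controls, and without generation 0 an unadjusted p under 0.05 was left for 2 of 84 members.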

How the data were processed

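The authors built stranded libraries from polyA RNA, processed the read pairs with CASAVA 1.8.2, aligned them with STAR to the FlyBase genome annotation and deposited raw counts of uniquely mapped reads per gene from HTSeq. The strand setting of the counting is not given in the sources used here, and 28 of 91 members overlap an annotated gene on the other strand. On the same strand 32 members overlap one, and 48 do so on either strand. In the other table the authors divided each library's raw counts by its own size factor (DESeq method), giving a signal per gene, and the ratio was checked to be constant within every library.

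The 91 members were matched to BDGP6.54 for position and exonic length, 86 by identifier and 5 by symbol. Members, lists and tests were chosen with earlier results of these data known, and nothing here is independent of them. Families join members whose symbols agree after a final lower-case a or b or "-like" is left off. Named genes are all family members, the 5 with the largest and the 5 with the smallest sex difference, the 3 most and least correlated with the joint score, the 5 with the widest generation range in each sex, members called in the slopes, and up to 3 called genes per direction of other lists.

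Tests used edgeR 4.0.16 (glmQLFit and glmQLFTest, R 4.3.3) on raw counts, with offsets from the size factors of the authors, for genes above a normalized count of 50 in at least 1 male or 100 in at least 1 female library. The call was an adjusted p under 0.001 (Benjamini-Hochberg over all genes tested). The sex test had population and generation as terms, the swing test population and 12 generation terms, and the slope test 6 intercepts, a shared slope and 4 added slopes. The fits were tested on simulated data. Alternatives were TMM factors, total counts, DESeq2 1.42.0, limma 3.58.1 on 6 populations, no filter, pools summed, a replicate block, each population, generation and pool number left out, and leaving out the 4 libraries with RNA of the other sex. Leaving out the control population 1 library was added after seeing the data. The depth of a library is its total on genes. P-values rest on the spread of libraries around each fit. It holds the spread between pools of flies and that between populations within a generation, which had no term of its own. In the slope test it also holds the swings around the straight lines. Counts of the 2 pools differed by more than counting error in every pair (chi-square per degree of freedom 6.91 to 1660).

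Populations with the same number were checked for shared slopes by the correlation of their deviations from the scheme means across genes. In females it was 0.62 for short and long, 0.23 for short and control and 0.41 for long and control, so the numbers pair the populations. In males it was 0.20, -0.04 and 0.09 and they do not. In 35 libraries the title and the replicate label give different pool numbers, and the title was followed. Results for some items are not reported here.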

Additional observations from a re-analysis of the deposited data

Results flagged for a closer look

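The sex difference changed with generation in 83 of 91 members by the interaction test (edgeR's quasi-likelihood F-test, adjusted p under 0.001), against 29.8% of all genes. Among family members, the range of the male minus female difference over generations was 3.83 on the log2 scale for RpL10Aa (adjusted p = 6.7e-14). Without the 4 libraries with RNA of the other sex it was 1.41 (adjusted p = 0.669). The range was 1.42 for RpS5b (adjusted p = 4.5e-05) and 0.27 without those libraries (adjusted p = 0.456), and with the replicate block the adjusted p was 0.179. For RpLP0 the range was 0.72 (adjusted p = 2.1e-05) and 0.72 without them. RpL24-like had 0.59 (adjusted p = 5.8e-07), RpLP0-like 0.55 (adjusted p = 0.000208) and RpL24 0.53 (adjusted p = 4.5e-07), and all 3 stayed called without the 4 libraries, with the replicate block and with TMM factors.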

How the results depend on the processing

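The median male minus female difference of the members was -0.998 with TMM factors, and 45 members were then lower in males by at least 1 on the log2 scale (share of all genes not given). The amplitude of the joint score was 0.61 in males and 0.56 in females with total counts, and 0.33 in females with TMM factors, where the low was at generation 13. RpLP0 turned to -0.39 with TMM factors and -0.0457 with total counts, and with a population or pool number left out it ranged over -0.0426 (without long-sleeper population 1) to 0.0605. The RpL10A family sum turned to -0.31 with TMM factors, and the RpL22 sum to -0.38 with TMM factors and -0.0466 with total counts. The short minus long slope of RpS3 in females ranged over -0.0288 to 0.0044 with a population, generation or pool number left out, and turned sign without long-sleeper population 1. The interaction was called in 51 members with pools summed and in 7 to 84 when a population or pool number was left out, the low end without the pools numbered 2 (17 without those numbered 1). Fewer libraries entered those fits. In males the slope call was lost (0 members) with TMM factors, pools summed, limma, the replicate block or without the 4 libraries, and ranged over 0 to 1 with a population, generation or pool number left out. In females 0 members were called with TMM factors, pools summed, limma or the replicate block and 2 with DESeq2, with 0 to 2 when leaving 1 out. limma called 0 of all genes in either sex. The short minus long slope ranged over 0 to 1 members in males and 0 to 0 in females. The replicate block left 84 members in the interaction, 90 in the male and 83 in the female swing and 90 in the sex test, and changed no count of members called by over 1.5 times besides the slopes. The joint score and the family sums come from no test, and the replicate block was not applied to them. The cause of these shifts was not tested. The 7 male-biased paralogues were under the count minimum in females, so their swings there were not tested.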

Other observations

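The members also moved together at a finer grain, between the 2 pools of flies from the same population, sex and generation. Over the differences between such pools a member's correlation with the joint score had a median of 0.83 in 91 members in males, with 79 above 0.5, and of 0.88 in 84 members in females, with 82 above 0.5. The pools share neither flies nor library, and the score is made of the members, so the values are descriptions. The share of all genes above 0.5 over pool differences was not taken, so this movement is not shown to be particular to the members.

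RpL36 and RpL21 had correlations with the joint score near or below 0 over libraries and positive ones over pool differences. RpL36 had a correlation of -0.19 over libraries and 0.58 over pool differences in males, and -0.05 and 0.73 in females. RpL21 had -0.05 and 0.60 in males, and -0.004 and 0.60 in females. RpLP0-like had -0.06 and -0.005 in males, and -0.11 and 0.31 in females.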
